A study of Mus musculus with 56 samples.

Results

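The liver of vehicle-treated mice at 72 h after injection was compared with that at 16 h, with 3 mice and 3 arrays at each time, 6 of the 56 samples of a study of locked nucleic acid (LNA) gapmers. The samples were picked by their labels, while the comparison and its gene lists were chosen with earlier results of these data known. All mice were male outbred CD-1 animals aged 6 to 8 weeks at the start, kept under a 12 h light and 12 h dark cycle with food and water always available. The vehicle was Dulbecco's phosphate buffered saline (DPBS), given as a single subcutaneous injection of 10 mL/kg. Beside these mice stand the vehicle mice at 8 h (n = 3) and mice given 25 mg/kg of the non-toxic gapmer NTS-1 or the toxic gapmer TS-2 in the same saline, killed at 16 h (4 and 3 mice) and 72 h (3 and 4 mice). A gapmer is an antisense oligonucleotide with LNA ends and a DNA middle, through which RNase H cuts the bound RNA. The spread used in the tests also drew on NTS-1 and TS-2 mice of 8 h. It drew as well on mice given 25 mg/kg of another gapmer, HTS-3, at 8 h and 16 h. From the 10 mice dosed per group, the livers ranked highest for a minor enlargement of hepatocytes were arrayed, so that they are not a random sample of the group.

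Gene levels are given as log2 of the authors' normalized array intensity, on which a difference of 1 is a 2-fold change, and a gene was tested if it reached an intensity of 32 (a level of 5) on at least 3 of the 37 single-dose arrays. Of 18194 genes 9137 passed. Their levels correlated between the 6 vehicle arrays with r from 0.962 to 0.986, and mouse 1 at 16 h had the lowest mean correlation with the other 5 arrays (0.971). The Actb 3'/5' log2 ratio, a measure of RNA integrity, lay between 1.20 and 1.61 at 16 h and between 1.24 and 1.98 at 72 h. The 9 tested hepatocyte markers, Alb (albumin) and Ttr (transthyretin) among them, had a median difference of -0.03, none passed the test, and their mean level lay between 14.8 and 15.2 in all 6 mice. The adipose and muscle markers were dim, with 6 of 7 at the lowest value of the arrays in all 6 mice and none tested.

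The hepatic circadian clock is a feedback loop of transcription factors. ARNTL (BMAL1) with CLOCK or NPAS2 binds E-box sequences and activates the Per, Cry and Nr1d genes, whose proteins repress it in turn, while ROR and NR1D proteins compete at ROR response elements of Arntl, Nfil3 and Cry1. DBP, TEF and HLF carry the rhythm to output genes through D-box sequences, where NFIL3 opposes them. By their labels the 72 h livers were taken at the clock hour of dosing and the 16 h livers 16 clock hours after it. The sources used here do not give the clock hour of dosing itself. The 8 h group falls between them, 8 clock hours after the hour of dosing, so that the 3 groups lie 8 h apart around the day.

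Promoter sequences of 4 clock genes show the elements these factors read, chosen because their genes lay well below or well above the 8 h level at 16 h and 72 h alike. They come from RefSeq on GRCm38.p6, in the 250 bases before the annotated start, with the E-box (CACGTG) or D-box (TTATGTAA or TTACGTAA) in capitals, searched on both strands. Tef has 1 E-box in bases 154 to 95 before its start (chr15:81802519-81802578, plus strand), Cry1 has 1 in bases 87 to 28 (chr10:85185082-85185141, minus strand), Ciart has 3 in bases 119 to 36 (chr3:95882264-95882347, minus strand), and Per3 has 2 D-boxes in bases 210 to 146 (chr4:151044811-151044875, minus strand).
Tef: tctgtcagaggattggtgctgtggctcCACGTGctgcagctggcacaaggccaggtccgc
Cry1: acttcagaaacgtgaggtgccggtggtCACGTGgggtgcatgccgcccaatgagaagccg
Ciart: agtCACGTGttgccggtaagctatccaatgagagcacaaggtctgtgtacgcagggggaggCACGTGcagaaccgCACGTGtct
Per3: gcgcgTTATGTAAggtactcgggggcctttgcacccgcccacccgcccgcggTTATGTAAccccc
Of the 26 clock genes on the array 19 matched the RefSeq table, with 24 promoters. An E-box lay in 6 of these (5 genes: Cry1, Per1, Ciart, Bhlhe41 and Tef), beside 6.02% of all 32851 promoters, and a D-box lay in 1 (Per3), beside 0.931%. The ROR response element lay in none of the 24 and in 0.35% of all promoters, which says only that these letters are not in these windows.

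No clock gene passed the test between the 72 h and the 16 h livers of vehicle mice. Of 27 listed clock genes 26 were on the array and 22 were tested in limma, with 0 called, beside 0.0219% of all genes called. At an unadjusted p under 0.05 there was 1 of the 22, beside 4.67% of all genes. The median size of the difference was 0.19 over the 22 genes and 0.13 over all genes. The same 22 genes differed from the 8 h livers by a median of 2.19 at 72 h and 1.98 at 16 h, where all genes differed by 0.18 and 0.17. Both of those comparisons share the 8 h arrays.

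Dbp, Cry1 and Nfil3 are the genes whose levels commonly mark the hour of a liver, and none of them passed the test here. Dbp, the D-box activator, was at 6.81, 6.37 and 6.29 in the 16 h mice and at 7.36, 6.65 and 6.33 in the 72 h mice, against 12.9, 13.0 and 13.2 at 8 h. The groups overlapped, and the difference of 0.29 ± 0.62 (SE) had a 95% interval from -0.99 to 1.57 (limma, adjusted p = 1). A second, dimmer Dbp probe set differed by 0.57. Cry1, a repressor of ARNTL and CLOCK, was at 9.10, 10.06 and 10.29 at 16 h, at 9.63, 10.57 and 9.73 at 72 h and at 6.98, 8.00 and 8.02 at 8 h. Its difference between 72 h and 16 h was 0.16 ± 0.35 (95% interval -0.55 to 0.87, adjusted p = 1). Nfil3, the D-box repressor, was at 10.11, 10.23 and 10.08 at 16 h and at 10.01, 10.67 and 10.21 at 72 h, a difference of 0.16 ± 0.39. Without mouse 1 at 16 h the differences were 0.45 for Dbp, -0.20 for Cry1 and 0.15 for Nfil3 (adjusted p = 1 in all 3), so that the sign of Cry1 turned. A transcript with a daily cycle passes the same level on its rise and on its fall. Whether the clock hours taken from the labels hold was not tested. The intervals leave room for differences, since they lay wholly within a 2-fold change either way in 10 of the 22 genes.

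**Figure D1:**
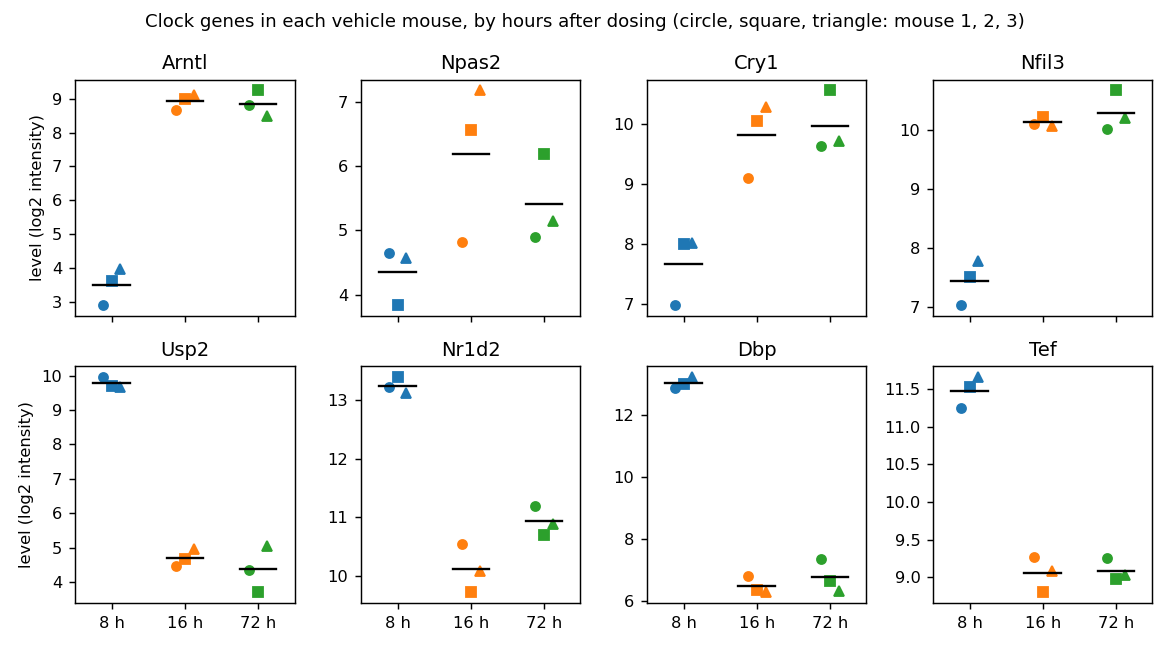
Levels (log2 intensity) of 8 clock genes in each vehicle mouse at 8, 16 and 72 h after dosing, with a line at each group's mean. Dbp, Tef, Usp2 and Nr1d2 were high at 8 h and Arntl, Cry1 and Nfil3 low, while the 16 h and 72 h mice overlapped in every gene shown except Nr1d2.

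Among the activators and the genes driven by ROR elements, 6 of 7 were tested and none passed. Arntl, the core activator, was at 8.65, 8.99 and 9.12 at 16 h and at 8.80, 9.24 and 8.47 at 72 h, with a difference of -0.08 ± 0.26 (95% interval -0.62 to 0.45), while the 8 h mice lay between 2.90 and 3.99. Clock differed by 0.19 ± 0.36 and Rora, which activates through ROR elements, by -0.12 ± 0.47, or by -0.54 without mouse 1 at 16 h (adjusted p = 1). Npas2, a partner of ARNTL in place of CLOCK, was at 4.81, 6.56 and 7.17 at 16 h and at 4.90, 6.18 and 5.15 at 72 h. Mouse 1 was the lowest of the 16 h group. With it the difference was -0.77 ± 0.41 (p = 0.0707, adjusted p = 1), and without it -1.46 (p = 4.5e-04, adjusted p = 0.454). Npas2 passed only with array weights, at -1.70 (adjusted p = 0.00741), the 1 such case among 372 combinations of a clock gene and an alternative setting. The median of the 6 genes was 0.04 with mouse 1 and -0.21 without it.

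Of the 9 repressors and E-box genes 5 were tested. Nr1d2 (REV-ERB beta), which represses Arntl, was at 10.55, 9.72 and 10.09 at 16 h and at 11.19, 10.71 and 10.89 at 72 h, so that the groups did not overlap. Its difference of 0.81 ± 0.38 did not pass (p = 0.0435, adjusted p = 1), and it was 1.02 without mouse 1 at 16 h (adjusted p = 1). In NTS-1 mice Nr1d2 differed by 1.03 ± 0.36 (adjusted p = 0.517) and in TS-2 mice by 1.34 ± 0.36 (adjusted p = 0.0710), neither past the test, and the interaction with vehicle was 0.22 and 0.53 (adjusted p = 1 in both). Beside it, 4.61% of all genes had wholly higher levels at 72 h. Cry2 differed by -0.01 ± 0.28, Bhlhe40, another E-box repressor, by -0.39 ± 0.44, and Per2 by -0.10 ± 0.39. Per2 was deposited at nearly the same value of 5.97 or 5.98 in 5 of the 6 mice. Ciart, a repressor of ARNTL and CLOCK, lay between 4.63 and 5.66 at 8 h and between 2.21 and 2.31 in all 16 h and 72 h mice, too dim for a difference to be measured. Per3 likewise lay between 4.08 and 5.01 at 8 h and at 2.19, the lowest value of the arrays, in all 6 mice of 16 h and 72 h. Per1 and Nr1d1 were dim in every vehicle mouse and Bhlhe41 was at the lowest value in all 9, so that these 3 genes and Per3 were not tested.

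All 11 clock output genes were tested and none passed. Tef, a D-box activator, was at 9.27, 8.80 and 9.08 at 16 h and at 9.25, 8.98 and 9.03 at 72 h, a difference of 0.03 ± 0.26, and Hlf differed by 0.10 ± 0.23, or by -0.14 without mouse 1 at 16 h (adjusted p = 1). Usp2, a deubiquitinase gene, was at 4.45, 4.68 and 4.94 at 16 h and at 4.34, 3.70 and 5.05 at 72 h, against 9.66 to 9.95 at 8 h. Wee1, a cell cycle kinase gene, differed by -0.23 ± 0.31, Gys2, the liver glycogen synthase gene, by -0.15 ± 0.26, Klf10 by 0.63 ± 0.48 and Leap2, which encodes a liver-expressed peptide, by 0.29 ± 0.45. Nampt, which encodes the rate-limiting enzyme of NAD salvage, was lower in every 72 h mouse (10.86, 10.31 and 10.91) than in the 16 h mice (11.18, 10.93 and 11.42), by 0.48 on the log2 scale with an SE of 0.25 and adjusted p = 1. Beside it, 3.62% of all genes had wholly lower levels at 72 h. Elovl3, a fatty acid elongase gene, was at 10.34 in mouse 1 at 16 h and between 13.43 and 14.15 in the other 5 mice. Its difference was 0.99 ± 0.58 with that mouse and -0.21 without it (adjusted p = 1 in both). The median of the 11 genes moved from 0.03 to -0.21 without that mouse, with 7 of 11 below 0, beside 49.4% of all genes.

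Against the 8 h livers, 4 clock genes were higher and 11 lower at 72 h, and 4 were higher and 8 lower at 16 h, where 1.89% and 2.1% of all genes were called. Over all genes the shares called higher and lower were 1.38% and 0.514% at 72 h, and 1.29% and 0.81% at 16 h. Arntl, Nfil3 and Cry1 rose in both, with Elovl3 at 72 h and Npas2 at 16 h. Nr1d2, Ciart, Dbp, Tef, Usp2, Wee1, Noct and Klf10 fell in both, with Bhlhe40, Nampt and Gys2 at 72 h. Dbp fell by 6.25 on the log2 scale at 72 h and by 6.54 at 16 h. Usp2 fell to levels near or below the brightness limit of 5, so that the size of its fall is not well measured. Ciart reached that limit among the vehicle mice at 8 h only. It entered the test through arrays where it was high, so that its calls in the counts above carry no separate weight. Over the 9 vehicle arrays, the 5 genes most alike to Dbp of 9115 compared were Gdap10 (Pearson r = 0.98), Coq10b (0.97), 4930503B20Rik (0.97), Rcl1 (0.95) and Pptc7 (0.95). These correlations describe the step from 8 h to the later times. Among the vehicle mice Gdap10 reached the brightness limit at 8 h only (5.49, 6.56 and 5.57). Gdap10 entered the test through arrays where it was high, so that its rank carries no separate weight. Between 72 h and 16 h, Coq10b, which encodes a coenzyme Q binding protein, differed by 0.13 ± 0.30 and Rcl1 by 0.21 ± 0.19, and Gdap10 was at the lowest value in all 6 mice.

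The mice given a gapmer allow the same pair of times to be read in other animals. In NTS-1 mice 1 clock gene and in TS-2 mice 2 clock genes passed between 72 h and 16 h, beside 0.372% and 0.755% of all genes called. Noct (nocturnin), a clock-driven gene of an NADP phosphatase, was at 5.54, 6.88 and 5.58 in vehicle mice at 16 h and at 6.25, 6.15 and 5.04 at 72 h, a difference of -0.19 ± 0.71. It fell by 3.10 in NTS-1 mice (adjusted p = 0.0223) and by 3.09 in TS-2 mice (adjusted p = 0.0299). The test of the difference from vehicle gave -2.91 ± 0.98 for NTS-1 (p = 0.00582) and -2.90 ± 0.98 for TS-2 (p = 0.00605), both with adjusted p = 1, so that the change was not shown to differ from that in vehicle mice. Leaving out 1 mouse at a time gave Noct an adjusted p from 0.0175 to 0.264 in NTS-1 mice, where the call was lost without mouse 2 or 3 of 16 h or any mouse of 72 h. Dbp rose by 2.41 in TS-2 mice (adjusted p = 0.0443), where the 72 h mice were at 7.53, 8.11, 6.08 and 11.02 and those of 16 h between 5.46 and 6.30. That difference exceeded the one in vehicle mice by 2.12 ± 0.85 (p = 0.0194, adjusted p = 1). Both TS-2 calls were lost without any 1 of the 7 mice except mouse 3 of 72 h, with adjusted p from 0.00172 to 0.14 for Noct and from 0.00172 to 0.213 for Dbp. With the replicate number as a block, which leaves TS-2 mouse 4 of 72 h without a partner, Noct differed by -3.06 (adjusted p = 0.618) and Dbp by 1.46 (adjusted p = 0.626).

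**Figure D2:**
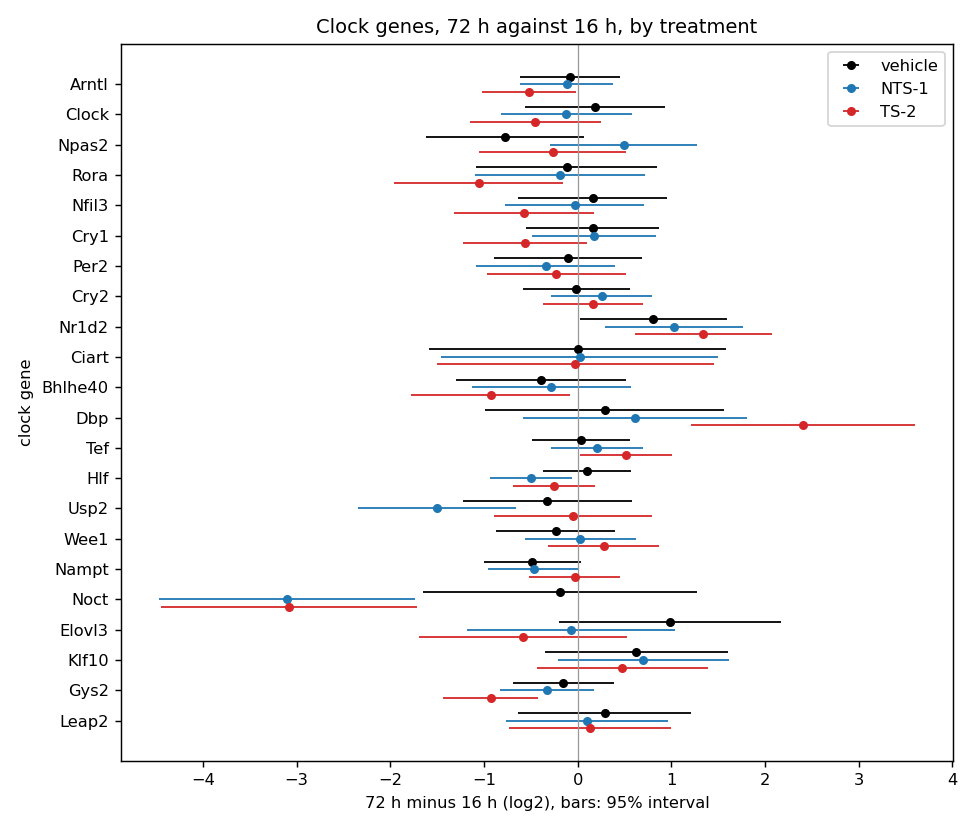
Difference between 72 h and 16 h (log2) of the 22 tested clock genes in vehicle, NTS-1 and TS-2 mice, with 95% intervals from limma. The vehicle values range from -0.77 (Npas2) to 0.99 (Elovl3), and Noct lies near -3 in both gapmer groups.

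Across all genes 2 of 9137 passed between 72 h and 16 h in vehicle mice, Fyb lower and Plekhf1 higher. They are 0.0219% of the genes, with 0.0109% in each direction, and 427 genes had an unadjusted p under 0.05. In limma 0 genes passed when the 6 arrays or the 9 vehicle arrays were fitted alone. The median SE of a difference was 0.24, and for 7285 genes the 95% interval lay wholly within a 2-fold change either way. The median difference over all genes was 0.02.

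**Figure D3:**
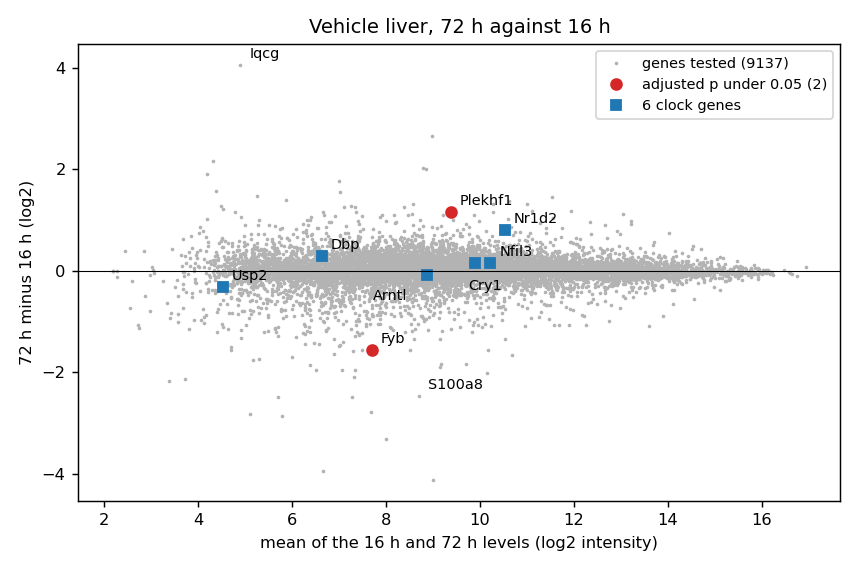
Difference between 72 h and 16 h (log2) against mean level (log2 intensity) of the 9137 tested genes in vehicle liver, with the 2 genes past the test in red and 6 clock genes in blue. Fyb lies at -1.56 and Plekhf1 at 1.17, and the 6 clock genes lie between -0.32 (Usp2) and 0.81 (Nr1d2).

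Fyb encodes an adaptor protein of T cells, platelets and myeloid cells. It was at 8.63, 8.39 and 8.40 at 16 h and at 6.22, 7.30 and 7.22 at 72 h, with the 8 h mice between at 7.44, 7.58 and 7.79. Every 72 h mouse lay below every 16 h mouse, and the fall was 1.56 ± 0.22 on the log2 scale, a 2.94-fold lower level (adjusted p = 8.56e-04). Without mouse 1 at 16 h it fell by 1.48 (adjusted p = 0.0196). A dimmer second probe set gave 6.65, 5.74 and 4.93 at 16 h and 4.75, 4.85 and 4.66 at 72 h. In NTS-1 and TS-2 mice Fyb differed by -0.17 and -0.06, and the test of the difference from vehicle gave p = 7.54e-05 and 2.78e-05 (adjusted p = 0.145 and 0.127). The macrophage list described further on lay lower at 72 h in the same mice, with mean levels of 9.98 to 11.3 at 16 h and 9.16 to 9.70 at 72 h, and of 13 lymphocyte markers on the array 5 were bright enough to test, Cd3e, Cd3d and Cd8a not among them. The part of these cells in the value of Fyb was not tested.

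Plekhf1 encodes an endosomal and lysosomal protein with a PH and a FYVE domain. It was at 8.65, 8.82 and 8.90 at 16 h and at 10.26, 9.84 and 9.77 at 72 h, with the 8 h mice at 10.01, 10.25 and 9.99. The 16 h mice were thus the low group, and 72 h exceeded 16 h by 1.17 ± 0.21, a 2.24-fold higher level (adjusted p = 0.0260). The difference no longer passed without mouse 1 at 16 h (1.10, adjusted p = 0.242), nor without mouse 2 (0.080) or 3 (0.0599) of 16 h or mouse 1 (0.319) or 2 (0.0569) of 72 h, these 4 being adjusted p-values. It was 0.66 in NTS-1 mice and 0.29 in TS-2 mice, neither of which passed (adjusted p = 0.32 and 0.54).

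**Figure D4:**
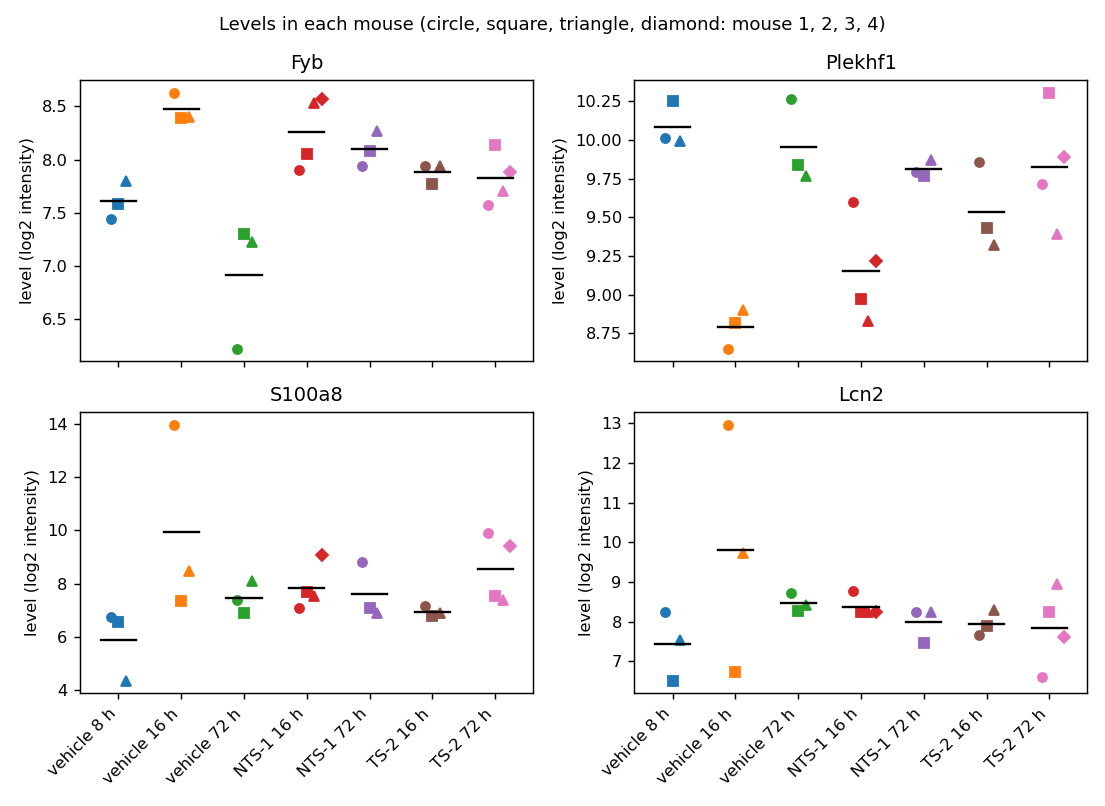
Levels (log2 intensity) of Fyb, Plekhf1, S100a8 and Lcn2 in each mouse of 7 groups, with a line at the group mean. Fyb and Plekhf1 separate the vehicle mice of 16 h and 72 h, while S100a8 and Lcn2 stand at 13.98 and 12.97 in mouse 1 of the vehicle 16 h group alone.

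In mouse 1 at 16 h more genes lay apart from the rest of its group than in the other vehicle mice. In this mouse 232 genes (2.54%) lay at least 2-fold above both others of the group and 134 (1.47%) at least 2-fold below, while the other 8 vehicle mice had 27 to 158 above and 44 to 103 below. The widest gaps above were those of Prtn3, S100a9, Cxcl14, S100a8, Ppbp and Orm2, genes picked out after their values were seen. The mean level of the macrophage list was also highest in this mouse of the 3 (11.3 against 10.1 and 9.98), as was that of the lymphocyte list (6.57 against 5.47 and 5.37). S100a8, which with S100a9 encodes the neutrophil protein calprotectin, was at 13.98 in mouse 1 and at 7.35 and 8.46 in mice 2 and 3, against 7.39, 6.88 and 8.10 at 72 h. S100a9 was at 13.22 in mouse 1 and between 5.34 and 6.84 in the other 5 mice. Their differences of -2.47 ± 1.03 and -2.48 ± 1.16 did not pass (adjusted p = 0.985 and 1) and were -0.45 and -0.13 without this mouse. These 2 were the only neutrophil markers bright enough to test of 12 on the array.

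In the same mouse Lcn2 (lipocalin 2), an iron-siderophore binding protein of the acute phase, was at 12.97 against 6.72 and 9.73 in mice 2 and 3, and Orm2, an orosomucoid gene, was at 13.44 against 8.48 and 8.35. The serum amyloid genes Saa1 and Saa2 stood at 15.63 and 13.83 in mouse 1, and Saa1 was at 13.04 and 14.35 in the others. Mt2, a metallothionein gene, was at 13.39 against 7.80 and 8.79, and Cyp7a1, the rate-limiting enzyme gene of bile acid synthesis, at 12.34 against 9.85 and 9.99. Below the others lay Elovl3, given above, and Cyp4a14, a PPAR-alpha target, at 3.03 against 11.73 and 8.56. Mt2, Orm2 and Cyp4a14 were named after their values were seen. Of the 23 tested acute phase genes none passed, 19 had a difference below 0 (45.6% of all genes did) and the median was -0.11, or -0.10 with 17 below 0 without mouse 1. Hamp, the hepcidin gene, was alike in all 6 mice (15.71 to 15.92).

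Genes of resident macrophages, the Kupffer cells, had lower mean levels at 72 h than at 16 h, and none passed the test over all genes. Of 15 listed genes 14 were on the array and 12 were tested. All 12 differences were below 0, against 45.6% of all genes. An unadjusted p under 0.05 was found for 10 of them (4.67% of all genes), and 8 had wholly separate groups (3.62%). The median was -0.91, beside 0.02 over all genes. In bulk liver, fewer cells of a type and less RNA per cell cannot be told apart.

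C1qa, a complement component made by macrophages, was at 12.52, 11.61 and 11.72 at 16 h and at 10.82, 11.17 and 11.00 at 72 h, a difference of -0.95 ± 0.23 (p = 2.85e-04, adjusted p = 0.283). Vsig4, a complement receptor of Kupffer cells, was at 13.06, 11.79 and 11.80 and at 10.89, 11.46 and 11.10, a difference of -1.06 ± 0.26 (adjusted p = 0.295). Clec4f, a lectin restricted to Kupffer cells, was at 12.50, 11.42 and 11.55 and at 10.79, 11.28 and 11.36, a difference of -0.68 ± 0.23. In each of these 3 genes mouse 1 was the highest of the 16 h group, and mice 2 and 3 lay closer to the mean of the 72 h mice than to mouse 1.

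Without mouse 1 at 16 h the median of the list was -0.49, 11 of 12 differences were below 0 (49.4% of all genes were), and 5 had an unadjusted p under 0.05 (3.22% of all genes). C1qa differed by -0.67, Vsig4 by -0.64 and Clec4f by -0.34 (adjusted p = 1 in all 3), and Lyz2, a lysozyme gene also high in monocytes and neutrophils, moved from -0.72 to 0.05. The mean level of the 12 genes was 11.3, 10.1 and 9.98 in the 16 h mice and 9.16, 9.58 and 9.70 in the 72 h mice, with the 8 h mice at 9.43, 9.61 and 9.80. The 3 mice of 16 h lay above the 3 of 72 h. In NTS-1 mice the list had a median of -0.36 with 8 of 12 below 0, and in TS-2 mice -0.43 with 12 of 12. Over all genes the medians of these changes were 0.02 and 0.01. No gene of the list passed in either.

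**Figure D5:**
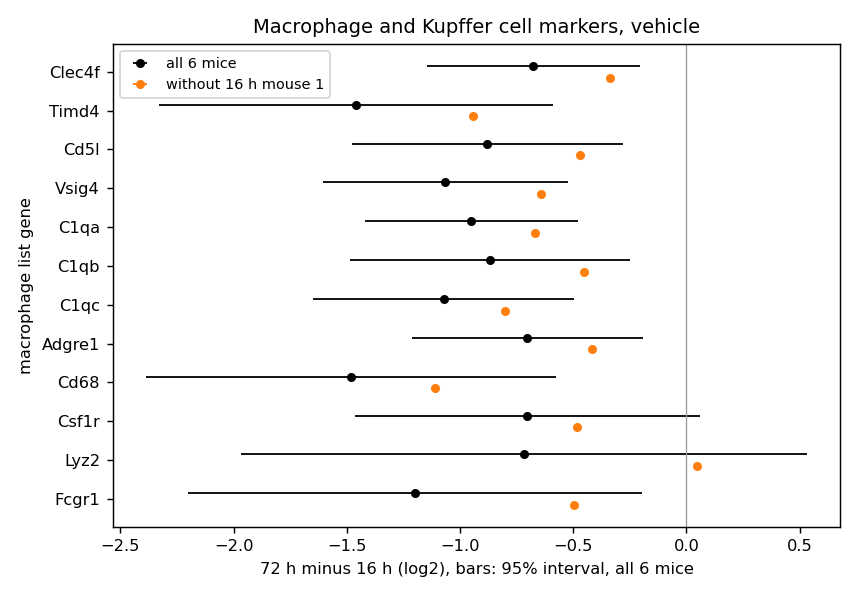
Difference between 72 h and 16 h (log2) of the 12 tested macrophage and Kupffer cell genes in vehicle mice, from all 6 mice (black, with 95% intervals) and without mouse 1 of 16 h (orange, no interval drawn). All 12 black points lie below 0, and without that mouse the median moves from -0.91 to -0.49 with Lyz2 at 0.05.

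With all 6 mice the endothelial, stellate cell and lymphocyte lists had medians nearer to 0 than the macrophage list (-0.91). Without mouse 1 of 16 h the macrophage median was -0.49, close to the endothelial one. The sinusoidal endothelial list had a median of -0.44 over 9 tested genes, of which 8 were below 0, and -0.45 without mouse 1 of 16 h. The stellate cell and matrix list had a median of -0.30 over 10 genes with 9 below 0, and -0.25 without mouse 1. Over all genes 45.6% of differences were below 0. Dcn, which encodes the matrix proteoglycan decorin, had the smallest p of that list and was at 13.31, 12.69 and 12.82 at 16 h and at 12.26, 12.49 and 12.33 at 72 h (-0.58 ± 0.17, adjusted p = 0.484). Dnase1l3, a nuclease gene of sinusoidal endothelium, differed by -0.69 ± 0.39. Of the lymphocyte markers, 4 of 5 tested genes were below 0 with a median of -0.38, which was 0.03 without mouse 1. The red blood cell gene Alas2 differed by 0.17 ± 0.76, the bile duct gene Epcam by -0.28 ± 0.15 and the pancreatic elastase gene Cela2a by -0.41 ± 0.55. Without mouse 1 Epcam differed by -0.14 and Cela2a by 0.38. No gene of these lists passed in vehicle mice, and the part of cell number in any of them was not tested.

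Interferon-stimulated genes had differences below 0 in 17 of 18 tested members (45.6% of all genes did), with a median of -0.71, and none passed. Xaf1, a pro-apoptotic interferon target with the smallest p of the list, was at 10.48, 8.46 and 8.87 at 16 h and at 8.55, 6.38 and 8.86 at 72 h, so that the groups overlapped (-1.34 ± 0.49, adjusted p = 0.757). Without mouse 1 at 16 h Xaf1 differed by -0.74 and the list by a median of -0.59 with 17 below 0, beside 49.4% of all genes. An unadjusted p under 0.05 in limma was then found for 0 of the 18, against 4 with all 6 mice. The shares of all genes were 3.22% and 4.67%. The list's mean level was 8.43, 7.53 and 8.24 at 16 h and 7.12, 7.47 and 7.67 at 72 h, so that the groups overlapped.

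In NTS-1 mice 12 of the 18 genes passed the test, beside 0.372% of all genes called, and the median was -2.73. Of the 18, the interaction with vehicle passed for Irf7, a transcription factor of the interferon response, and Oas1a, an antiviral oligoadenylate synthetase. Irf7 was at 6.43, 5.13 and 6.43 in the vehicle mice at 16 h and at 6.06 in all 3 at 72 h. In NTS-1 mice it lay between 9.29 and 10.58 at 16 h and between 6.43 and 6.53 at 72 h, and the change differed from that in vehicle mice by -3.75 ± 0.54 (adjusted p = 0.00136). Oas1a differed likewise by -2.52 ± 0.38 (adjusted p = 0.00136). In TS-2 mice the list had a median of 0.35 and none passed.

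Other gene groups held no call, and the gene named first from each had the smallest p of its list. Among stress genes, Hspa1b, an inducible heat shock protein gene, was higher in every 72 h mouse (11.09, 11.84 and 12.02) than at 16 h (10.79, 10.82 and 9.39), a difference of 1.32 ± 0.61 (adjusted p = 1), and the 12 tested heat shock genes had a median of 0.20, or 0.08 without mouse 1 at 16 h. Wholly higher levels at 72 h were held by 4.61% of all genes. Dnajb9, a chaperone gene of the endoplasmic reticulum, was at 12.52, 12.80 and 12.95 at 16 h and at 13.56, 13.74 and 13.74 at 72 h (0.92 ± 0.36, adjusted p = 0.899), in a list of 17 with a median of 0.14, which was -0.14 with 11 of 17 below 0 without mouse 1, beside 49.4% of all genes. Tsc22d3 (GILZ), a glucocorticoid target, differed by 0.62 ± 0.34, and Cirbp, a cold-induced RNA-binding protein gene, by -0.64 ± 0.50. Klf2, an immediate early factor high in endothelium, differed by -0.94 ± 0.32 (adjusted p = 0.683), in a list of 14 with a median of 0.18. Prkaa1, a catalytic subunit gene of AMP-activated kinase, which phosphorylates CRY1, differed by 0.40 ± 0.28, and Ccne1, the cyclin E1 gene, by 1.16 ± 0.41.

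Among metabolic lists, Cyp2b10, a target of the xenobiotic receptor CAR (Nr1i3), was at 11.08, 10.73 and 11.66 at 16 h and at 9.89, 8.87 and 8.70 at 72 h, with the 8 h mice between 8.27 and 9.41. The groups were apart, and the difference of -2.01 ± 0.63 did not pass (adjusted p = 0.628) and was -2.04 without mouse 1. Wholly lower levels at 72 h were held by 3.62% of all genes and wholly higher ones by 4.61%. The 13 tested xenobiotic genes had a median of -0.08, or -0.29 without mouse 1. Nr0b2 (SHP), a bile acid induced repressor of Cyp7a1, was at 11.55, 11.87 and 12.16 at 16 h and at 12.82, 13.13 and 12.51 at 72 h (0.96 ± 0.51), while Cyp7a1 itself differed by -0.70 ± 0.64, or by 0.10 without mouse 1. Lss, the lanosterol synthase gene of cholesterol synthesis, was at 11.31, 11.31 and 11.45 and at 11.09, 10.47 and 10.34 (-0.72 ± 0.34), and 13 of 15 tested genes of that pathway were below 0, or 10 without mouse 1, with medians of -0.21 and -0.08. Over all genes 45.6% were below 0, or 49.4% without mouse 1. Angptl4, a lipase inhibitor gene induced by PPAR-alpha, differed by 0.68 ± 0.32, Pnpla3, a lipogenic gene, by -1.74 ± 0.80, the glucose transporter gene Slc2a2 by 0.49 ± 0.26 and the urea cycle gene Asl by -0.33 ± 0.17, none past the test.

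In the gapmer groups more genes passed between 72 h and 16 h. In NTS-1 mice 3 genes rose (0.0328%) and 31 fell (0.339%), and 22 passed without mouse 3 of 72 h. In TS-2 mice 22 rose (0.241%) and 47 fell (0.514%). Deviations of same-numbered TS-2 mice from their group means correlated at 0.33, 0.12 and 0.20. With the number as a block 0 passed. Without mouse 1, 2 or 3 of the TS-2 16 h group 3, 3 and 1 genes passed, and without mouse 1, 3 or 4 of the 72 h group 8, 234 and 13. The interaction with vehicle passed for 2 genes in NTS-1 (0.0219%), Irf7 and Oas1a, and for 1 in TS-2 (0.0109%), Cdc42. Cdc42 was at 13.77, 13.62 and 13.57 in vehicle mice at 16 h and at 13.70, 13.64 and 13.79 at 72 h. In TS-2 mice it lay between 13.24 and 13.35 at 16 h and between 12.29 and 12.58 at 72 h, a change that differed from that in vehicle mice by -0.89 ± 0.15 (adjusted p = 0.0125). Without vehicle 16 h mouse 2 or 3 this call was lost, with 0 genes past the test. Next by p, without passing, the NTS-1 change exceeded the vehicle change by 1.49 in Vsig4 and by 2.45 in Ccl5, a T cell and macrophage chemokine gene (adjusted p = 0.304 in both), and differed from it by -2.14 in Dhx58, an RNA sensor gene of the interferon response (0.145). In TS-2 the difference was 2.17 in Irf9, another interferon factor, 0.88 in Cep19, -3.23 in Cadps2 and -1.85 in Mtss1 (adjusted p = 0.542 for Cadps2 and 1 for the others). No other gene's change was shown to differ between treated and vehicle mice.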

How the data were processed

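Per the labels, RNA was taken with RNeasy columns and labelled with an Enzo single-round kit. Per the submitters' processing notes, the arrays were summarised with RMA (version not given in the sources used here). Intensity was deposited on a linear scale after the authors' normalization, and log2 was taken of it. Probe sets of exactly 1 gene by the platform annotation were used (34958 of 45101), with symbols updated by gene ID, and the probe set with the highest mean stood for a gene. The lowest value was 4.56, and genes below 32 on all but 2 or fewer of the 37 single-dose arrays were left out, as were the 19 arrays of the 2-week study. In 14.7% of tested genes at least 2 of the 6 vehicle arrays held an identical value above 32.

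Differences were tested with limma 3.58.1 in R 4.3.3, with 1 mean per group over 11 groups, moderated variances (eBayes) and the Benjamini-Hochberg method over 9137 genes, at a threshold of 0.05. SE is the moderated standard error. Gene lists (29, with 284 of 394 members tested) were described by counts and medians without a set test. The comparison, its lists and its named genes were chosen with earlier results of these data known. Named genes were all members of the clock lists, genes past the test whose groups were apart, of each other list the gene with the smallest p where none passed, 7 fixed inflammatory and bile acid genes, the 3 smallest p per direction of each interaction, and the 5 genes most alike to Dbp. The fit was tested on simulated data. The labels call the samples biological replicates. Deviations from group means of same-numbered mice correlated at 0.18, 0.39 and -0.04 (vehicle), -0.22, 0.05 and -0.09 (NTS-1), and 0.33, 0.12 and 0.20 (TS-2). The main fit took no numbers as pairs, and the number entered as a block only among the alternatives. The number of arrays limits the precision.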

Additional observations from a re-analysis of the deposited data

Results flagged for a closer look

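Changes between 72 h and 16 h that differed from those in vehicle mice by limma's interaction test were those of Irf7 (-3.75) and Oas1a (-2.52) in NTS-1 mice and of Cdc42 (-0.89) in TS-2 mice. In groups of 4 mice, 2 of 60 tested combinations of a named gene and a group had a mouse far from the others, where chance flags about 1 in 20. Cry2 in TS-2 mice at 72 h was at 7.28 in 1 mouse and between 7.84 and 7.91 in the others. Lcn2 in NTS-1 mice at 16 h was at 8.78 in 1 mouse, while the other 3 were deposited at the same value of 8.23. Groups of 3, mouse 1 of the vehicle 16 h group included, were not tested in this way.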

How the results depend on the processing

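Fyb passed under 14 of 17 alternatives (-1.75 to -1.21; adjusted p from 2.62e-05 to 1) and Plekhf1 under 9 of 17 (1.01 to 1.26; 0.00311 to 0.923), each with its direction kept in all 17. Both were lost in fits of the 2 compared groups, of the 3 vehicle groups and with a replicate block, which gave 0 calls each. No filter gave 5 calls and array weights, whose estimation stopped before converging, 216 (107 higher, 109 lower); leaving out each mouse gave 1 to 3. For NTS-1 at 72 h against 16 h, 34 calls became 55 with array weights, 0 with the replicate block and 22 to 38 without each mouse. For TS-2, 69 became 4 without a filter, 37 with the mean of probe sets, 1149 with array weights, 6 with the Actb ratio as covariate, 0 in the 2 groups alone, 0 with the block and 1 to 234 without each mouse. The NTS-1 interaction gave 13 with array weights and 2 to 3 without each vehicle mouse; that of TS-2 gave 2 after quantile normalization, 11 with array weights and 0 to 3. The causes were not tested. Of list medians 471 of 476 moved by less than the spread of replicates. Mouse 1 of vehicle 16 h widens that spread. Without it the neutrophil median moved from -2.48 to -0.29 and the macrophage median from -0.91 to -0.49, both within the spread. Settings such as no filter or a fit of fewer groups cannot move a median. The count is thus no test of stability. Directions were followed only for the named genes of the vehicle comparison and, in part, for Noct and Dbp in gapmer mice. For the other calls in the gapmer groups and interactions only counts were recorded. Without vehicle 16 h mouse 1 the sign turned in 7 of 28 list medians and in 3 of 22 clock genes (Cry1, Elovl3 and Hlf), none past the test. With 3 mice a group, small changes are out of reach.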

Other observations

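Antigen presentation genes of class II, which no list held, were lower at 72 h and are named after their values were seen, so that they carry no test of a theme. H2-Aa, a class II alpha chain gene, was at 11.25, 10.48 and 10.13 at 16 h and at 8.04, 9.06 and 9.24 at 72 h, with the 8 h mice between 8.10 and 9.41. Cd74, the invariant chain gene, was at 12.23, 11.35 and 10.96 and at 9.16, 10.21 and 10.19. Their differences of -1.84 ± 0.55 and -1.66 ± 0.50 did not pass in limma (adjusted p = 0.557 in both), and were -1.52 and -1.30 without mouse 1 of 16 h. In NTS-1 and TS-2 mice H2-Aa differed by 0.76 and 0.46 and Cd74 by 0.52 and 0.02, none past the test. The myeloid genes Fpr2 (-2.09), Clec4a3 (-1.95) and Ctss (-0.99), also picked out afterwards, had wholly separate groups without passing, beside 3.62% of all genes wholly lower. Mouse 1 was the highest 16 h mouse in each: Fpr2 9.56 against 7.61 and 7.93, Clec4a3 9.19 against 7.72 and 7.22, Ctss 13.84 against 12.74 and 13.13. In Folr2, picked with them, the groups overlapped (10.22, 8.28 and 9.04 at 16 h, 7.90, 8.32 and 7.86 at 72 h).

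Iqcg, a gene of an IQ-motif protein of cilia and flagella and also picked out afterwards, was at 3.09, 2.86 and 2.65 at 16 h, below the brightness limit, and at 6.66, 6.45 and 7.69 at 72 h, while 1 of the 8 h mice was at 6.33 and the others at 3.09. The size of the difference thus rests on dim values. It was 4.07 ± 0.92 and did not pass (adjusted p = 0.183), and Iqcg differed by -0.16 in NTS-1 and 0.11 in TS-2 mice. Yy1, a zinc finger transcription factor gene, was at 11.81, 11.81 and 11.49 at 16 h and at 12.24, 12.26 and 12.60 at 72 h (0.66 ± 0.15, adjusted p = 0.183).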
